A study of Mus musculus with 5 samples.

Results

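The Ly6 family surface antigen genes described here are Ly6a, Ly6c1, Ly6c2, Ly6d, Ly6e and Ly6g, 6 of the 24860 gene symbols counted in single cells of mouse mammary tumours. They were matched by symbol. All carry a Ly6 name and lie in the same cluster of genes on chromosome 15, and they were chosen by earlier results of these data, among them their UMI counts by cell type and the lower Ly6c2 and Ly6a of tumour macrophages under progesterone. Values from the macrophages and monocytes and the levels by cell class are therefore given as descriptions, with no test. The tumours grew from SSM2 cells, a transplantable mouse mammary tumour line, injected into a left mammary fat pad of mice 10 to 12 weeks of age, and were collected 28 to 62 days later. Each mouse carried a pellet under the skin, either placebo or progesterone, the pellets being of 60 mg with release over 60 days. Both groups thus carried the same tumour line and a pellet, and no library came from a mouse without a tumour or from a gland without SSM2 cells. The 2 placebo and 3 progesterone libraries fall into 2 batches by their titles: the libraries called Placebo 1 and Progesterone 1 here form batch 1, and the remaining 3 form batch 2.

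Ly6 proteins are small and rich in cysteine, and most are tethered to the outer face of the cell membrane by a glycosylphosphatidylinositol (GPI) anchor. Several are used as antibody targets that define blood cell types: the product of Ly6a, also called Sca-1, on stem cells, endothelium and activated lymphocytes, Ly6C on monocytes and T cell subsets, and Ly6G on mature neutrophils. Ly6d marks B-lineage commitment in lymphoid progenitors, and Ly6e is an interferon-inducible member with broad expression. In mouse mammary tumours, Sca-1 has been used as a label of subsets of tumour epithelium.

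On the GRCm38 build with the GENCODE M21 annotation, the 6 genes were protein coding and spread over 397071 bases. Ly6d lay at chr15:74762056-74763620 on the minus strand and Ly6e at chr15:74955051-74959905 on the plus strand. Ly6a, at chr15:74994877-74998031, Ly6c1, at chr15:75044018-75048830, and Ly6c2, at chr15:75108158-75111970, followed on the minus strand, and Ly6g lay at chr15:75155240-75159126 on the plus strand. Ly6a and Ly6d had 3 exons in the transcript used and the others 4. Ly6c1 and Ly6c2 are the pair whose reads could be exchanged: their coding sequences of 396 bases were 97.7% identical. By contrast Ly6a and Ly6c1 were 82.0% identical, Ly6a and Ly6g 83.2%, and Ly6d and Ly6e 51.0%. The coding sequences of the pair are shown because the split between them recurs in the results. The first 300 coding bases of each are read 5′ to 3′ from the exons of Ly6c1 (coding part chr15:75045402-75048511, minus strand) and Ly6c2 (coding part chr15:75108543-75111667, minus strand). The capitals mark 7 of the 9 bases at which the coding sequences differ, the others lying further on.
Ly6c1: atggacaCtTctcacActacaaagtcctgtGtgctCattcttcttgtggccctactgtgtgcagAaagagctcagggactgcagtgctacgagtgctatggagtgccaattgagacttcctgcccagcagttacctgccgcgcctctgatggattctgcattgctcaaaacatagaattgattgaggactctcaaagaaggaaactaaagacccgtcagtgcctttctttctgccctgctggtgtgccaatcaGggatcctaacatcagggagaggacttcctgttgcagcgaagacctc
Ly6c2: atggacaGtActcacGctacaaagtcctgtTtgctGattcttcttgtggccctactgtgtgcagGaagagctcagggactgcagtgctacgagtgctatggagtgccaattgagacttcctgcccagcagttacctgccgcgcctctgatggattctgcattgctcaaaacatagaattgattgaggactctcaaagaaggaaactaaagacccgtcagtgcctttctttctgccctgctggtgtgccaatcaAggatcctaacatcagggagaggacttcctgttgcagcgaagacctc
The libraries count the 3′ ends of transcripts, where the last 300 bases of the pair aligned with 93.5% identity and 6 mismatches, the rest of the difference being gaps. Reads from the shared stretches cannot be told apart, so the levels of this pair carry an uncertainty that the other members do not share to the same degree.

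Depth differed by batch: the deposited counts summed to 43194597 and 23409215 unique molecular identifiers (UMIs) in Placebo 1 and Progesterone 1, against 182845008 to 204786073 in the batch 2 libraries. After removal of likely doublets 2191 to 5583 cells remained per library, and any pair of libraries shared 2 to 12 cell barcodes. Clusters were named from markers that included no Ly6 gene, giving 12 named classes. The make-up of the libraries differed strongly. Placebo 1 held 3989 T cells and 2 epithelial cells, and Progesterone 1 held 54 epithelial cells, whereas each batch 2 library held 2796 to 3204. Tumour epithelium of placebo is therefore described from Placebo 2 alone, and for that class the treatment and the library cannot be told apart. No label ties each library to an animal of its own. The file names of the last 2 progesterone libraries carry a common identifier with L in one and R in the other. The p-values below therefore cover spread among libraries, which may be technical, and not necessarily among animals. Levels are given as CPM, the UMIs of a gene per 1000000 UMIs summed over the cells of a class in a library, for sums of at least 10 cells unless stated. In a class, fewer cells with the transcript and less transcript per cell give the same sum.

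**Figure D1:**
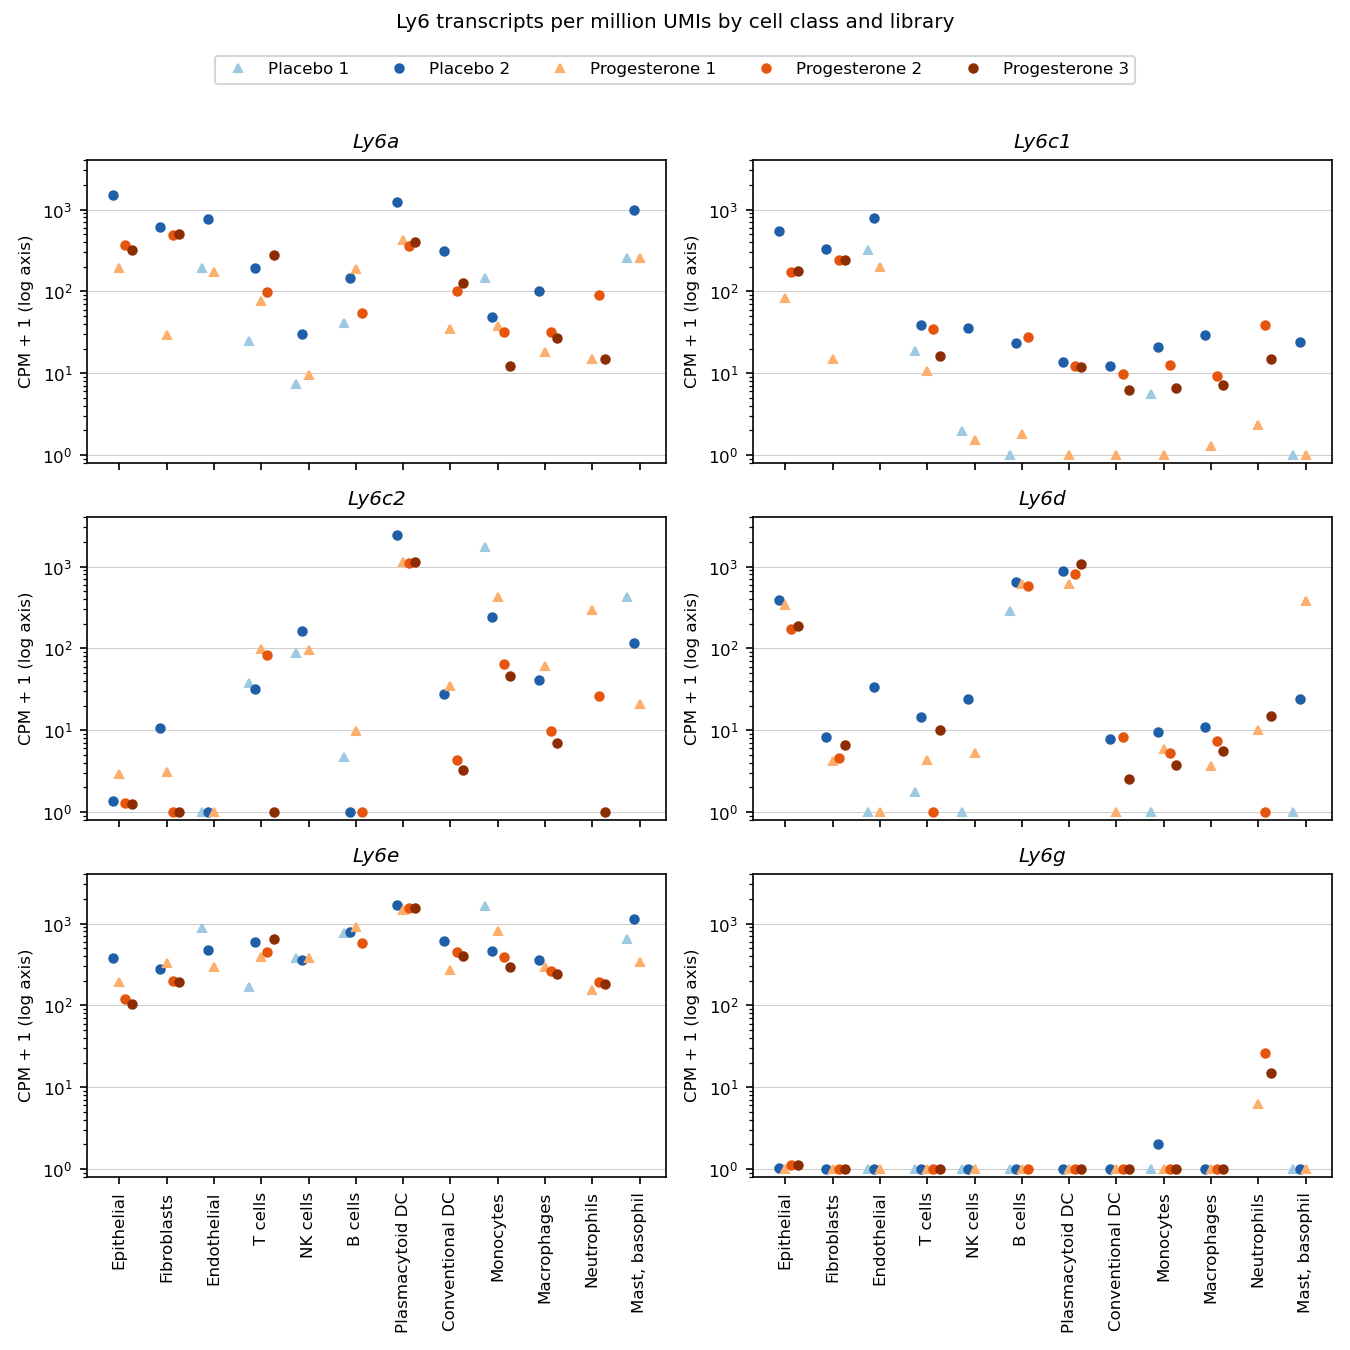
Level of each of the 6 genes by cell class, 1 point per library, on a log axis of CPM + 1; point colour and shape give treatment and batch as in the key. By the median over libraries, Ly6c2 sits highest in plasmacytoid dendritic cells and monocytes, and Ly6c1 in endothelium, fibroblasts and epithelium. The monocyte values of Ly6c2, at 44.4 to 1707 CPM, overlap those of other classes. Ly6g is at 5.22 to 25.4 CPM in neutrophils and at most at 1.05 CPM in the other classes.

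Each gene had its own distribution over the cell classes. Ly6a, the Sca-1 gene, was at 1492 CPM in the epithelium of Placebo 2, at 1228 CPM in its plasmacytoid dendritic cells, the interferon-producing dendritic cells, at 766 CPM in its endothelium and at 613 CPM in its fibroblasts. In NK cells it was at 6.39, 8.58 and 29.2 CPM in Placebo 1, Progesterone 1 and Placebo 2. Of the endothelial value, 199 CPM could be carried by tumour RNA, as scaled by keratin UMIs. The epithelium, the plasmacytoid dendritic cells and the fibroblasts of batch 2 thus all lay far above NK cells, but the order among the first 3 changed with the library: in Progesterone 2 fibroblasts were at 483 CPM, epithelium at 369 CPM and plasmacytoid dendritic cells at 356 CPM. Ly6d was at 286, 619, 651 and 582 CPM in the B cells of Placebo 1, Progesterone 1, Placebo 2 and Progesterone 2. In plasmacytoid dendritic cells Ly6d was at 893 CPM in Placebo 2 and at 602, 816 and 1064 CPM in Progesterone 1, 2 and 3. The ranges of these 2 classes overlap, and epithelium, at 171 to 384 CPM, overlaps B cells through Placebo 1. In macrophages Ly6d was at 2.62 to 9.99 CPM. Ly6e was present in every named class, from 103.5 CPM in the epithelium of Progesterone 3 to 1662 CPM in the plasmacytoid dendritic cells of Placebo 2. In plasmacytoid dendritic cells its 4 values ran from 1467 to 1662 CPM, above those of every other class except the monocytes of Placebo 1, at 1652 CPM.

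Ly6g, the gene of the neutrophil antigen Ly6G, was almost absent. It gave 0, 8, 6, 23 and 32 UMIs over all cells of Placebo 1, Progesterone 1, Placebo 2, Progesterone 2 and Progesterone 3. In the 336 cells of the neutrophil class of Progesterone 1 there were 8 Ly6g UMIs, or 5.22 CPM, while S100a8, a calcium-binding protein gene of neutrophils, and Csf3r, the receptor for granulocyte colony-stimulating factor, reached at least 7457 and 723 CPM in the class. The 26 and 29 neutrophils of Progesterone 2 and Progesterone 3 held 2 UMIs and 1 UMI, or 25.4 and 13.9 CPM. In the other classes Ly6g was at most at 1.05 CPM. Most Ly6g UMIs of batch 2 were in no neutrophil. The 10 leading genes of the cluster were S100a9, S100a8, Camp, Ngp, Acod1, Prtn3, Cxcl2, G0s2, Elane and Wfdc21. At a finer clustering, 317 of the Progesterone 1 cells fell in a cluster led by S100a9, Acod1, S100a8, Cxcl2 and G0s2, apart from 1 with Camp, Ngp, Prtn3 and Elane among its leading genes. Placebo 1 and Placebo 2 held only 9 and 4 neutrophils, under the 10 cells required, so Ly6g of neutrophils was not compared between the groups. Among the classes compared, Ly6g had enough counts to be tested only in epithelium, with the doubtful call below.

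Ly6c1 and Ly6c2 divided the cell classes between them. UMIs are counted once per molecule, so the 2 genes can be set against each other as a share. Of the UMIs of both genes, Ly6c2 took 0.0643% in the epithelium of Placebo 2, 0.174% in Progesterone 2 and 0.149% in Progesterone 3. In endothelium it took 0 of 48, 0 of 59 and 0 of 389 UMIs in Placebo 1, Progesterone 1 and Placebo 2. In the plasmacytoid dendritic cells of Placebo 2 it took 99.5%, against 100%, 99.02% and 99.05% in Progesterone 1, 2 and 3. Tumour epithelium and endothelium therefore counted almost only as Ly6c1, and plasmacytoid dendritic cells almost only as Ly6c2. Monocytes followed the latter, at 99.7%, 100%, 92.3%, 84.5% and 88.9% in Placebo 1, Progesterone 1, Placebo 2, Progesterone 2 and Progesterone 3. Ly6c1 in the batch 2 monocytes was at 19.9, 11.6 and 5.56 CPM, and the amount that free tumour RNA could carry there, scaled by keratin UMIs, was 13.9, 8.07 and 5.83 CPM. The part of tumour RNA in these Ly6c1 values was not tested.

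**Figure D2:**
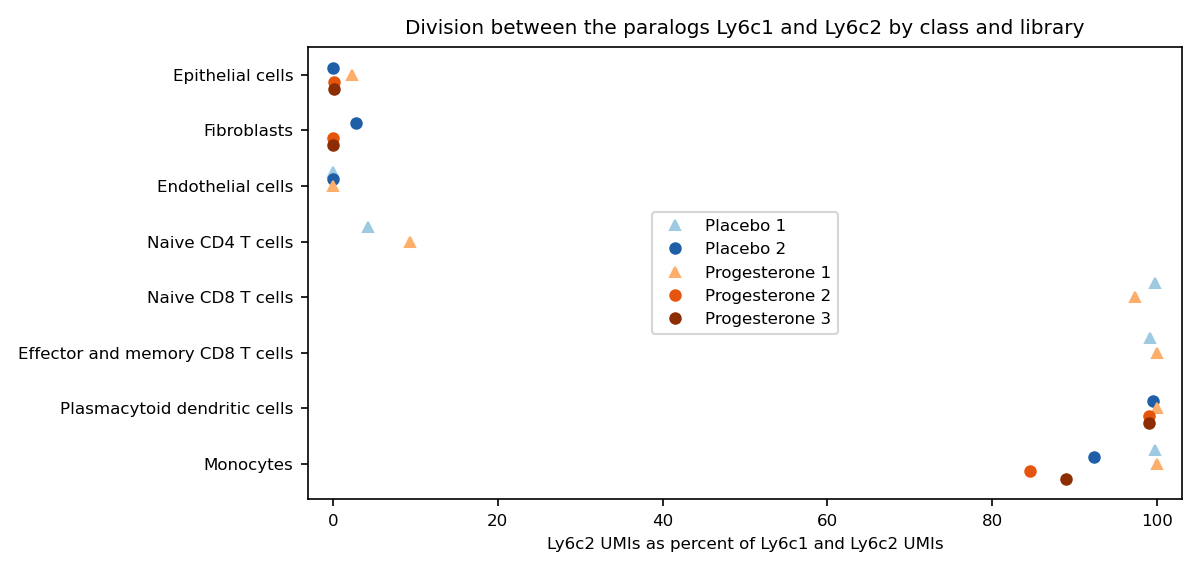
Percent of the summed Ly6c1 and Ly6c2 UMIs that were counted as Ly6c2, by cell class or T cell sub-class, 1 point per library with at least 20 such UMIs. Naive CD4 T cells lie at 4.30% and 9.38%, whereas naive CD8 T cells lie at 99.7% and 97.3%.

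The same division ran through the T cells. In the 2598 naive CD4 T cells of Placebo 1, 579 UMIs were counted as Ly6c1 and 26 as Ly6c2, a Ly6c2 share of 4.30%. In the 847 naive CD8 T cells of the same library, 2 UMIs were counted as Ly6c1 and 607 as Ly6c2, a share of 99.7%. Progesterone 1 gave 9.38% and 97.3% on 32 and 37 UMIs, so both batch 1 libraries showed the reversal between naive CD4 and naive CD8 T cells. It did not extend to all CD4 cells: activated CD4 T cells had Ly6c2 shares of 72.3% and 53.3% in Placebo 1 and Progesterone 1, on 34 of 47 and 8 of 15 UMIs. Regulatory T cells ranged from 0% to 100% over the 5 libraries, on few UMIs. Placebo 2 had 4 Ly6c2 and 6 Ly6c1 UMIs in 16 naive CD8 T cells, too few to place. Effector and memory CD8 T cells had shares of 99.1% and 100% in Placebo 1 and Progesterone 1. Their Ly6c2 level was 686 and 443 CPM, against 76.0 and 96.1 CPM in the naive CD8 T cells of those libraries, and this order held in both. Gamma delta T cells of the same libraries, 29 and 11 cells, had 0 UMIs of either gene, and Ly6e at 639 and 1148 CPM.

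Promoters were compared because the pair is so alike in its coding part and so different in its cells. RefSeq (GRCm38.p6) gave the 250 bases before the start for 3 of the 6 members. The Ly6c1 window is chr15:75048838-75049087 and the Ly6c2 window chr15:75111972-75112221, both on the minus strand and printed 5′ to 3′, with capitals marking the ETS core AGGAAGT, the letters bound by factors of the ETS family.
Ly6c1 promoter: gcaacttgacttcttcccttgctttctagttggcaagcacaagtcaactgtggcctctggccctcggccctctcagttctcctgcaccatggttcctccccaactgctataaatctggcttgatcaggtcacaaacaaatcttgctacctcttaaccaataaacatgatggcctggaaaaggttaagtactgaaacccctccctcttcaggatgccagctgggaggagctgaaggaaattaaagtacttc
Ly6c2 promoter: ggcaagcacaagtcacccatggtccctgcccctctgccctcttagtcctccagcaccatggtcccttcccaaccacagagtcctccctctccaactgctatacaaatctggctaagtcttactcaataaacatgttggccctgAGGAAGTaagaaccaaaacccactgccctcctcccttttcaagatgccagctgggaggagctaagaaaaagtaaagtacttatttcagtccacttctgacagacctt
The windows were 57.7% identical over 284 aligned positions, with 52 mismatches and the rest gaps. Gaps count as differences here, and the windows are out of register: the stretch that opens the Ly6c2 window lies further on in that of Ly6c1. The percentage therefore depends on the annotated starts and cannot be set directly against that of the coding sequences. The ETS core, searched on both strands, was found once in Ly6c2, once in Ly6g and not in Ly6c1, and 7.69% of 32851 promoter windows held it. The letters of the interferon-stimulated response element (GAAA, any 2 bases, GAAA; 2.98% of windows), of a STAT site (TTC, any 3 bases, GAA; 7.02%) and of a steroid receptor element (G, any base, ACA, any 3 bases, TGT, any base, C; 0.387%) were in none of the 3 windows. A match describes the letters only.

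Treatment was compared class by class with edgeR's quasi-likelihood test on the summed UMIs, with batch as a term and Benjamini-Hochberg adjustment over all genes tested in the class. The genes were chosen with earlier results of these same libraries known. In every class, p-values and shares of members called are therefore not those of genes chosen independently of the data. In plasmacytoid dendritic cells Ly6a and Ly6c2 were lower under progesterone. Ly6a was at 1228 CPM in Placebo 2 and at 429, 356 and 396 CPM in Progesterone 1, 2 and 3. Every progesterone library lay below the placebo library, and the difference within batch 2 was 3.27-fold (log2 −1.71, SE 0.17, adjusted p = 3.73e-20 by edgeR's quasi-likelihood test with Benjamini-Hochberg adjustment). Ly6c2 was at 2411 CPM in Placebo 2 and at 1136, 1119 and 1126 CPM in the 3 progesterone libraries. It was 2.15-fold lower within batch 2 (log2 −1.11, SE 0.15, adjusted p = 2.10e-11 by the same edgeR test). Ly6d (log2 0.06, SE 0.16) and Ly6e (log2 −0.11, SE 0.15) were not called. Of the 4 members tested, 2 were called lower, and 2.00% of the 7417 genes tested in the class were called in either direction. DESeq2 also called 2. Without the batch term 1 was called: Ly6a kept its call, and Ly6c2, at log2 −1.12, had an adjusted p of 0.464 by edgeR.

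The fit rests on 1 placebo library of 51 cells against 27, 46 and 45 cells and has 1 residual degree of freedom, so the spread is mostly that estimated across genes. The adjusted p-values of Ly6a and Ly6c2 were larger by orders of magnitude with DESeq2 and with no filter on low counts. Their size thus depends on the fit. Placebo 1 held only 8 plasmacytoid dendritic cells and stayed out of the fit. Those 8 cells had Ly6a at 1183 CPM (exact Poisson 95% interval 1007 to 1381) and Ly6c2 at 1966 CPM (1737 to 2217), both above all progesterone libraries. With them included, a fit added after the data were seen, Ly6a was at log2 −1.61 and Ly6c2 at log2 −0.98, and 2 members were called. Counting intervals cover counting error only. The Ly6a that free tumour RNA could carry in this class, scaled by keratin UMIs, was 36.3 CPM in Placebo 2 and 19.8 CPM or less in the progesterone libraries.

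**Figure D3:**
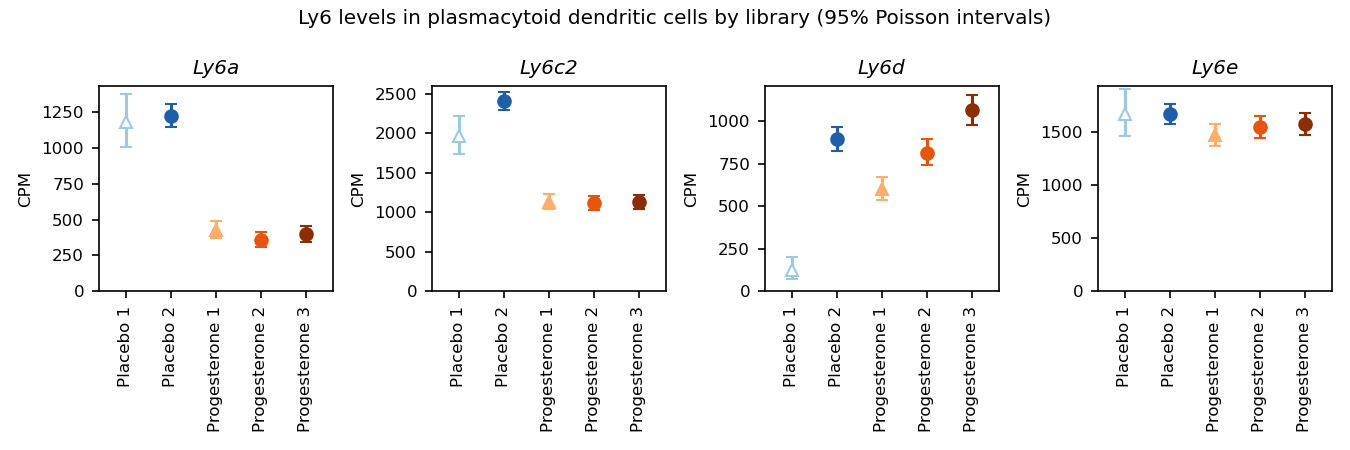
Levels of Ly6a, Ly6c2, Ly6d and Ly6e in plasmacytoid dendritic cells by library, in CPM with exact Poisson 95% intervals; the open symbol is Placebo 1, with 8 cells. Ly6a and Ly6c2 are lower in all 3 progesterone libraries than in both placebo libraries, and Ly6e lies between 1467 and 1671 CPM in all 5.

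Other genes of the class were read from lists, and the counts called are to be read against the 2.00% of all genes called in the class. Of 44 interferon-stimulated genes 23 were tested, and 0 were called higher and 6 lower by edgeR. All 23 had a negative log2 change, with a median of −0.94 against 0.00 over all genes tested. Isg15, a ubiquitin-like modifier, was at log2 −2.88 (SE 0.46), Ifi44 at −3.17 (SE 0.41), Ifi27l2a at −1.26 (SE 0.20), and Irf7, the regulator of interferon production in these cells, at −1.66 (SE 0.32). Of the genes that build the GPI anchor 18 were tested with 0 called and a median of 0.01. Among the other family members Plaur, the urokinase receptor, was lower at log2 −0.76 (SE 0.19), and Cd59a, an inhibitor of complement, was at 0.26 (SE 0.26). Dissociation stress genes moved in both directions, 2 called higher and 2 lower of 17, and Krt15, a tumour keratin, was called higher at log2 3.15 (SE 0.54). The part of any of these in the Ly6a and Ly6c2 values was not tested.

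In tumour epithelium 4 members were lower under progesterone. Ly6a was at 1492 CPM in Placebo 2 and at 191, 369 and 324 CPM in Progesterone 1, 2 and 3. Ly6c1 was at 546 CPM against 81.4, 174 and 174 CPM, and Ly6e at 375 CPM against 190.1, 119 and 103.5 CPM. Placebo 2 lay above every progesterone library for each of these. Ly6d was at 384 CPM in Placebo 2 and at 337, 171 and 189 CPM, so Progesterone 1 came close to the placebo value. The log2 changes, estimated within batch 2, were −2.26 (SE 0.12) for Ly6a, −1.80 (SE 0.09) for Ly6c1, −1.90 (SE 0.11) for Ly6e and −1.24 (SE 0.10) for Ly6d. Their adjusted p-values by edgeR's quasi-likelihood test with Benjamini-Hochberg adjustment ran from 3.93e-06 to 3.64e-05. Ly6c2, at 0.26 to 1.90 CPM, was not called. Ly6g was called higher by edgeR (log2 1.43) on 5, 21 and 20 UMIs in Placebo 2, Progesterone 2 and Progesterone 3. DESeq2 gave it no adjusted p. In all 5 of 6 members were called, against 47.3% of the 16345 genes tested, 3754 of them higher and 3980 lower. With nearly every other gene called, a call in this class says little about a single gene, and with the sums thinned to equal depth 0 of 4 tested members passed by edgeR, 3 having an unadjusted p under 0.05. No gene at all was called in the thinned fit, so the lack of calls there is not particular to the members. The thinned log2 changes were −2.15 for Ly6a, −2.13 for Ly6c1 and −1.90 for Ly6e, about as large as before, and −0.46 for Ly6d.

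The epithelial cells of Placebo 2 lay in other clusters than those of progesterone. Clusters 1 and 20, led by Gcg, the glucagon gene, took up 95.5% of the Placebo 2 epithelium but 0.269% and 0.0624% of that of Progesterone 2 and 3. In 5 clusters (2, 4, 6, 8 and 11) all 3 batch 2 libraries had at least 10 cells, Placebo 2 having 13 to 27. There Ly6a was higher in Placebo 2 than in both progesterone libraries in 5 of 5 clusters, by 1.39 to 6.21 times. Ly6e was higher in 5 of 5, by 1.09 to 2.42 times, and Ly6c1 in 4 of 5. Ly6d went the other way in 3 of 5 clusters (2, 4 and 8), where Placebo 2 was below both progesterone libraries. In cluster 2, for example, Ly6d was at 73.7 CPM in Placebo 2 and at 202 and 230.2 CPM in Progesterone 2 and 3. In clusters 6 and 11 Ly6d was higher in Placebo 2, by 1.02 to 1.31 times. These are counts over clusters of the same 3 libraries, with no test.

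**Figure D4:**
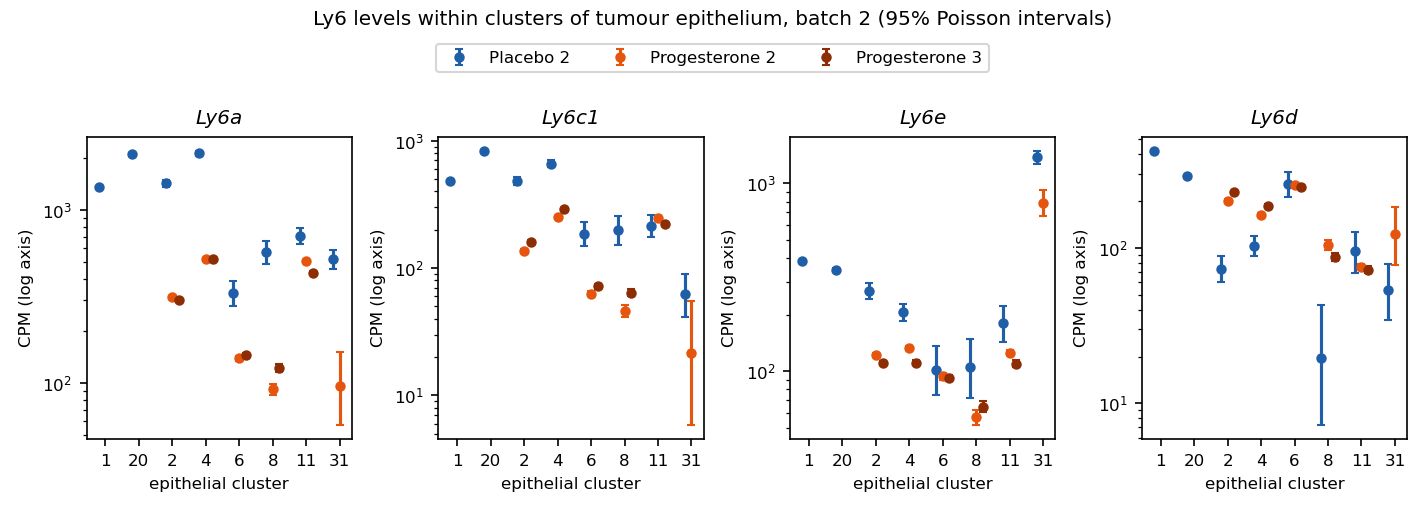
Levels of Ly6a, Ly6c1, Ly6e and Ly6d by epithelial cluster in the 3 batch 2 libraries, in CPM on a log axis, for clusters with at least 10 cells of a library. Ly6a of Placebo 2 lies above both progesterone libraries in clusters 2, 4, 6, 8 and 11, whereas Ly6d of Placebo 2 lies below them in clusters 2, 4 and 8.

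Ly6a and Ly6c1 rose and fell together from cell to cell. Their Spearman correlation over epithelial cells was 0.81 in Placebo 2 (2796 cells), 0.77 in Progesterone 2 (2972 cells) and 0.76 in Progesterone 3 (3204 cells). In each library Ly6c1 was the first neighbour of Ly6a, and Ly6a of Ly6c1, among 10564 to 10781 genes. Cells of a library share its depth and free RNA, and the correlations are descriptions. The first neighbour of Ly6e was also Ly6a in all 3 libraries, at 0.32, 0.49 and 0.48. Ly6d stood apart, at 0.09, 0.26 and 0.27 with Ly6a. S100a6, a calcium-binding protein gene, was the next neighbour of Ly6a in all 3, at 0.59, 0.65 and 0.61.

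Expression within the epithelium was uneven. The tenth of cells with the highest Ly6a counts held 37.9% of its UMIs in Placebo 2, 54.4% in Progesterone 2 and 55.8% in Progesterone 3. For Ly6d the corresponding shares were 60.4%, 80.2% and 79.7%, and for Ly6e 29.5%, 37.8% and 38.0%. By these shares Ly6e was the most evenly spread of the 3 and Ly6d the least in each of these libraries. The shares are of raw UMIs, so they also reflect the depth of each cell and the level of the gene. Ly6a had at least 1 UMI in 97.2% of epithelial cells of Placebo 2, 82.5% of Progesterone 2 and 77.8% of Progesterone 3. With each cell thinned to 1500 UMIs the shares of Placebo 2 and Progesterone 2 were 68.4% and 26.9%. In the macrophages of those 2 libraries, where free RNA is a possible source, 58.8% and 21.8% had a Ly6a UMI before thinning.

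Other members of the wider Ly6 and uPAR family were compared in the epithelium. Of 39 listed genes 34 were in the files and 17 reached 10 CPM in some class. In the epithelium 24 were tested, 7 called higher and 8 lower by edgeR, with a median log2 of 0.00 against 0.01 over all genes. The counts for this list and the next are to be read against the 47.3% of all genes called in the class. Tex101, a GPI-anchored germ cell antigen, was at 151 CPM in Placebo 2 and at 315, 313 and 321 CPM in Progesterone 1, 2 and 3. Its direction was thus opposite to that of Ly6a. Psca, the prostate stem cell antigen, was also higher (log2 2.08, SE 0.17), while Ly6g6c was lower (log2 −1.30, SE 0.12). Ly6g6d was lower within batch 2 (log2 −1.49, SE 0.12). Its highest level of any class and library was in the epithelium of Progesterone 1, at 12.5 CPM on 33 UMIs, above Placebo 2. The family did not move as a block. Of 33 genes of GPI anchor synthesis 3 were called higher and 13 lower, a share near that of all genes, with a median of −0.22. Of 43 interferon-stimulated genes tested 6 were called higher and 26 lower, with a median of −0.82, among them Tap1 at log2 −1.68 (SE 0.08) and Ifih1 at −2.23 (SE 0.11). Outside the epithelium, Gpihbp1, the lipoprotein lipase carrier of capillaries, reached 395 CPM in endothelium, and Cd177, a neutrophil antigen, was at 151 CPM in the neutrophils of Progesterone 1, where Ly6g was at 5.22 CPM.

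In conventional dendritic cells Ly6a was at 310 CPM in Placebo 2 and at 33.9, 99.2 and 127 CPM in Progesterone 1, 2 and 3, below placebo in each. The log2 change was −1.43 (SE 0.20, adjusted p = 0.0242 by edgeR's quasi-likelihood test with Benjamini-Hochberg adjustment). Ly6c2 was at 26.3 CPM in Placebo 2 and at 33.9, 3.33 and 2.27 CPM in Progesterone 1, 2 and 3. Its log2 change of −2.59 (SE 0.43, adjusted p = 0.0438 by the same edgeR test) holds within batch 2, and Progesterone 1 lay above Placebo 2. The Ly6a that tumour RNA could carry was 47.5, 17.6 and 15.2 CPM in Placebo 2, Progesterone 2 and Progesterone 3. Ly6c2 was found in 9.33% of the 75 cells of Placebo 2. The fit has Placebo 2 as its only placebo library and 1 residual degree of freedom, so treatment and library cannot be told apart in this class. In all 2 of 4 members tested were called, against 0.294% of 9169 genes, and 0 were called by DESeq2 or by edgeR without the batch term, where 2 and 1 had an unadjusted p under 0.05.

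Fibroblasts showed Ly6a at 613 CPM in Placebo 2 and at 28.6, 483 and 505 CPM in Progesterone 1, 2 and 3. The change was not called (log2 −0.14, SE 0.20), and Progesterone 1, with 23 cells, stood apart from the rest. Ly6c1 was at 332 CPM against 13.8, 238 and 243 CPM and was not called either (log2 −0.29, SE 0.19). Of the 5 members tested 1 was called, against 6.20% of 11543 genes. That member was Ly6c2. DESeq2 gave it no adjusted p, and its 81 UMIs in Placebo 2 came from 2 of 306 cells. The call thus rests on those cells.

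In lymphocytes no member was called. In T cells Ly6a was at 23.9 and 190.0 CPM in Placebo 1 and 2 and at 75.9, 96.6 and 278 CPM in Progesterone 1, 2 and 3, so the groups overlapped. Its log2 change was 0.67, and 0 of 4 members tested passed by edgeR, with 0 at an unadjusted p under 0.05 and 0 by DESeq2. In the same class 0.0129% of 7727 genes were called. Ly6e was at 165 and 591 CPM in placebo and at 391, 449 and 655 CPM in progesterone, again overlapping. Placebo 1, which held mostly naive T cells, was the lowest library for both genes. Without Placebo 2 the log2 change of Ly6a was 1.52. That fit leaves Placebo 1 as the only placebo library and compares it with Progesterone 1 within batch 1. In B cells 0 of 3 members were called by edgeR, with 0 at an unadjusted p under 0.05 and 0 by DESeq2, against 0.454% of 7486 genes. In regulatory T cells 0 of 3 were called by edgeR, with 0 at an unadjusted p under 0.05 and 0 by DESeq2, against 0% of 6372 genes. Regulatory T cells of Progesterone 2 had 17 Ly6c2 UMIs, all in 1 cell.

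In monocytes Ly6c2 was at 1707 and 238 CPM in Placebo 1 and 2 and at 428, 63.4 and 44.4 CPM in Progesterone 1, 2 and 3. The batches differed more than the treatments did: Progesterone 1 lay above Placebo 2, and within each batch progesterone was lower. Placebo 1 had 11 monocytes. Ly6a in monocytes was at 143 and 48.2 CPM in placebo and at 37.0, 30.7 and 11.1 CPM in progesterone. Tumour RNA could carry 38.0, 17.1 and 10.8 CPM of it in Placebo 2, Progesterone 2 and Progesterone 3. In macrophages Ly6a was at 99.9 CPM in Placebo 2 and at 17.2, 30.5 and 25.8 CPM in Progesterone 1, 2 and 3. The cells of the class lay in different clusters: 306 of the 546 macrophages of Placebo 2 were in cluster 18, led by Retnla, Ccl6 and Mrc1, against 8 of 169, 62 of 868 and 42 of 506 in Progesterone 1, 2 and 3. Most progesterone macrophages were in cluster 3, led by Apoe and C1qa, and the part of this make-up in the values was not tested. Ly6c2 in macrophages was at 39.8 CPM against 59.7, 8.66 and 5.97 CPM, and Progesterone 1 again lay above Placebo 2. Of the 99.9 CPM of Ly6a in Placebo 2 macrophages, about 56.4 CPM could be carried by tumour RNA, by the keratin scaling, against 15.04 and 10.7 CPM in Progesterone 2 and 3. Its part in the Ly6a values of macrophages was not tested. These contrasts were among the results known when the genes were chosen; 18.9% of 12400 genes were called in macrophages, 0.0263% of 7591 in monocytes and 1.11% of 11793 in both summed.

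The change in macrophages and monocytes minus the change in T cells was log2 −2.70 (SE 0.70) for Ly6a and −3.25 (SE 1.03) for Ly6c2. These differences rest on the myeloid contrast already known and are given with no test, in a fit where 0.167% of 12550 genes were called. Over the alternatives, Ly6a ran from −1.64 (batch 2 alone) to −4.23 (without Placebo 2) and Ly6c2 from −2.30 (batch 2 alone) to −3.84 (without Placebo 2), so their size depends on the libraries in the fit.

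Genes with the most similar pattern were ranked by Pearson's r of log2(CPM + 1) over 46 sums of a class in a library, among 14234 genes, as a description. These sums share libraries and depth. Ly6c1 lay closest to S100a16 (0.90), Crip2 (0.87) and Ltbp1 (0.86), and Ly6c2 to Lair1 (0.80), an inhibitory leukocyte receptor, Trim30a (0.75) and 5830432E09Rik (0.74). Ly6c1 against Ly6c2 gave −0.55. Ly6e lay closest to H2-T23 (0.75), Selenot (0.74) and Irf8 (0.73), H2-T23 being a non-classical class I gene and Irf8 a dendritic cell and interferon regulator. Ly6a was closest to Arpc5l (0.79), Hmgn3 (0.74) and Psma3 (0.66), and stood at 0.51 with Ly6c1, its first neighbour within the epithelium. Ly6d was closest to Chdh (0.73), C130026I21Rik (0.72) and 1110059E24Rik (0.71). Ly6g gave Gm3286 (0.98), Mrgpra2b (0.96) and Fpr1 (0.95) on few UMIs.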

How the data were processed

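Single cells of SSM2 tumours were captured in 5 libraries with 10x 3′ v3.1 chemistry. The authors deposited raw UMI counts per gene and cell barcode; the aligner was Cell Ranger, version 8.0.1 per the file headers and 7.0.0 per the submitters' processing notes, on mm10. No mitochondrial gene was in the files, and 0 columns lacked a sample. Cells of at least 250 genes were kept. Cells with the most simulated doublets among their neighbours, scored per library, were removed, 1.78% to 4.68% of barcodes per library. Cells were clustered by the Leiden algorithm with leidenalg (2000 variable genes, 30 components, 20 neighbours, resolution 1) without Ly6 genes, and clusters were named from marker lists. Clusters with under 33.3% of the library's median UMIs that had a deeper cluster of their class were kept out, a rule added after the data were seen; 377 to 1451 cells per library stayed unnamed.

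Raw counts were summed per class and library (at least 10 cells) and compared between treatments (edgeR 4.0.16, R 4.3.3): TMM, filterByExpr, prior count 2, robust quasi-likelihood fit with batch as a term, Benjamini-Hochberg over all genes of a class, threshold 0.05. DESeq2 1.42.0 was an alternative. The fit was also run on simulated counts with large changes, a low fixed spread and no batch effect. That run does not test the p-values at the spread of these libraries. Replicate numbers in the labels are the batches only for number 1, so the block used is batch. Intervals are exact Poisson. Free tumour RNA was scaled by keratin UMIs. Named genes are the 6 members, the 3 genes most like each, up to 4 genes of smallest p from each list and family genes reaching 10 CPM; the neutrophil markers S100a8 and Csf3r, the cluster leaders, S100a6 and Krt15 were chosen after their values were seen. The members and lists were chosen with earlier results of these data known.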

Additional observations from a re-analysis of the deposited data

How the results depend on the processing

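The replicate block used here is batch, since number 1 of each group is batch 1 and the others are batch 2. Without the block the number of members called was 3 in epithelium, 1 in plasmacytoid dendritic cells, and 0 in conventional dendritic cells and fibroblasts. With the sums thinned to equal depth it was 0 in epithelium, conventional dendritic cells and fibroblasts, Ly6c2 not being tested in these fits. With DESeq2 it was 0 in conventional dendritic cells and fibroblasts, Ly6c2 of fibroblasts having no adjusted p there. With no filter on low counts it was 1 in regulatory T cells. Leaving out 1 library at a time gave 0 to 1 members in T cells (1 without Placebo 2). It gave Ly6d log2 −0.81 to 3.67 in macrophages with monocytes, the sign turning without Placebo 2, when Placebo 1, at 0 CPM, was the only placebo library. Among the genes most like a member, 1 of the 3 for Ly6c2 and 1 for Ly6d stayed in the first 10 within batch 2, and 1 for Ly6d by Spearman rho. Causes were not tested. Over all alternatives, values of the results named in the design were the same 120 times, moved 10, weaker 11 and stronger 5 times. Same here means within a set margin of the main value. Tested single-gene values kept their call or lack of one 302 times, and were weaker 18 times and stronger 1 time. A change of sign among values not called counts as kept. Ly6a in T cells, for example, was at log2 0.67 in the main fit and at −0.03 with batch 2 alone. Untested values stayed within the SE of the main value 143 times, moved 39 and reversed 1 time.

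Shares of cells depend on depth. Thinned to 1500 UMIs, 84.3% of plasmacytoid dendritic cells of Placebo 2 had Ly6c2. Ly6a was found in 68.4% and 84.4% of the epithelial cells of Placebo 2 at 1500 and 4000 UMIs, in 26.9% and 47.1% of those of Progesterone 2, and in 43.1% and 57.5% of the fibroblasts of Placebo 2.

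Counts of all genes called moved more. Epithelium gave 7734, against 4368 with DESeq2, 1536 without the block and 0 thinned. Plasmacytoid dendritic cells gave 148, against 4 with DESeq2, 41 unfiltered, 16 without the block and 3 with Placebo 1 kept. Conventional dendritic cells gave 27, and 0 to 296 over the alternatives. Fibroblasts gave 716, and 0 to 1182. B cells gave 34, and 0 to 80. T cells gave 1, and 0 to 441. Regulatory T cells gave 0, and up to 244. Macrophages gave 2346, and 8 to 2407. Monocytes gave 2, and 0 to 267. Both summed gave 131, and 0 to 2233. The difference between macrophages with monocytes and T cells gave 21, against 0 without the block, and 0 (without Progesterone 2) to 618 (without Placebo 2) leaving out 1 library. Leaving out Placebo 2, Progesterone 2 or Progesterone 3 could not be fitted in the classes with 1 residual degree of freedom, nor could batch 2 alone in B cells.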
